A study of Homo sapiens with 6 samples.

Results

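The cytosolic ribosomal proteins are the protein components of the ribosome that translates messenger RNA in the cytoplasm. Their genes were taken by symbol: RPL or RPS followed by a number, with a small set of suffix letters, together with RPLP0, RPLP1, RPLP2, RPSA and RPL36AL. This rule selected 85 of the 58051 genes in the table, 53 of the large subunit and 32 of the small subunit, and it left out the pseudogenes. Among them were 8 paralogs of another ribosomal protein gene, RPL3L, RPL7L1, RPL10L, RPL22L1, RPL26L1, RPL36AL, RPL39L and RPS27L. The genes lay on 21 chromosomes, with 12 on chromosome 19.

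The study measured RNA from wild-type MDA-MB-231 cells, an established human breast cancer line, after staining with fluorescent recombinant human FABP4, a fatty acid carrier protein, and flow sorting. The binding and the non-binding fraction had 3 libraries each, so both groups share the line, the genotype and the sort. Total RNA was depleted of ribosomal RNA and primed at random, and the values are TPM, which correct for transcript length and give each gene as a share of its library. Whether libraries with the same label are separate cultures is not stated, so a p-value here covers the spread among these 6 libraries alone, and that spread may be technical.

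Each ribosome holds a single copy of nearly every ribosomal protein, so the proteins are needed in matched amounts, and unassembled ones are degraded. Their messenger RNAs are among the most abundant in growing cells and typically begin with a 5′ terminal oligopyrimidine (TOP) tract, a run of C and T bases through which LARP1 and the kinase complex mTORC1 control their translation. The genes are also known for their many processed pseudogenes, whose sequences resemble the spliced messenger RNA.

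Between 15300 and 15945 genes per library reached 1 TPM, and the depth behind these values is unknown. The line's markers VIM, CD44, CAV1, AXL, LGALS1 and ANXA1 were present in every library, and the summed level of its 10 high markers was 5128 to 6290 TPM in binding against 3523 to 3745 TPM in non-binding libraries. Of these 10, 5 passed the test as higher and 0 as lower, beside 19.6% and 7.12% of all tested genes. LGALS1 alone averaged 2675 against 1373 TPM, while MSN had 430.6 to 571.7 against 621.4 to 704.3 TPM, without overlap (log2 difference -0.34; limma, Benjamini-Hochberg adjusted p = 0.109), and S100A4 differed by -0.22. Of the line's 5 low markers, ESR1 was listed at 0 in all 6 libraries and PGR at 0 to 0.0573 TPM. The other low markers were present in every library, ERBB2 at 9.75 to 14.7, GATA3 at 9.90 to 16.9 and EPCAM at 4.44 to 8.27 TPM. Epidermal markers were also present: their 10 measured genes summed to 1303 to 2365 TPM in binding against 3031 to 4337 TPM in non-binding libraries. Of the 10, 6 passed the test as lower, beside 7.12% of all tested genes, and 0 as higher. DSP lay above in the binding libraries, at 47.58 to 52.83 against 40.41 to 45.38 TPM, and did not pass. Without non-binding replicate 3 no line-high or epidermal marker passed, with 6 of 10 in each list at limma's unadjusted p under 0.05. Markers of leukocytes (17.1 to 29.9 TPM in binding, 21.3 to 29.9 TPM in non-binding libraries), fibroblasts (27.4 to 63.5 and 34.2 to 60.7 TPM), endothelium (1.23 to 3.13 and 1.85 to 3.75 TPM) and adipocytes (0.152 to 0.471 and 0.228 to 1.46 TPM) had overlapping sums, and ADIPOQ, LEP and NKG7 were listed at 0 throughout. Of 6 fibroblast markers 1, PDGFRB, passed as higher (log2 difference 0.84, limma, Benjamini-Hochberg adjusted p = 0.049) and 0 as lower. Processed pseudogenes of all genes took 15.8% ± 3.44 of TPM in binding and 26.4% ± 1.71 in non-binding libraries (mean ± SD, n = 3 per group), and transcripts of the mitochondrial genome took 9.99% to 11.2% and 2.98% to 3.38%. The part of the epidermal, pseudogene and mitochondrial shares in the results on ribosomal protein genes was not tested, apart from the rescaled values given below. In bulk samples, fewer cells of a type and less RNA per cell cannot be told apart.

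The start of the RNA is shown first for 8 members, the 4 largest rises and the 4 largest falls that had a RefSeq promoter entry (GRCh38.p14). Each line gives 25 bases before the annotated start and 25 bases from the start on, 5′ to 3′ on the coding strand, and capitals mark a run of at least 8 C or T bases that lies within 5 bases of the start. RPL26 (chr17:8383169-8383218, minus strand), RPL26L1 (chr5:172958855-172958904, plus strand), RPL3 (chr22:39319599-39319648, minus strand) and RPSA (chr3:39406695-39406744, plus strand) rose. RPL10L (chr14:46651757-46651806, minus strand), RPS27 (chr1:153990737-153990786, plus strand), RPL31 (chr2:101002264-101002313, plus strand) and RPS19 (chr19:41860230-41860279, plus strand) fell. For RPL26L1 and RPS19 the table gives 2 starts, and the one with the longer run is shown.
RPL26: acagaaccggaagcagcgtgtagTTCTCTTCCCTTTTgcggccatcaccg
RPL26L1: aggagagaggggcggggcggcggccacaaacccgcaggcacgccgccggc
RPL3: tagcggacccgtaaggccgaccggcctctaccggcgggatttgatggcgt
RPSA: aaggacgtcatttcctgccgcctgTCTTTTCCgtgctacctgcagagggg
RPL10L: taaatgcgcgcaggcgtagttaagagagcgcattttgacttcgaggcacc
RPS27: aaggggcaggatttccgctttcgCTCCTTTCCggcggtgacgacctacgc
RPL31: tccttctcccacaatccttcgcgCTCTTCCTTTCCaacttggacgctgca
RPS19: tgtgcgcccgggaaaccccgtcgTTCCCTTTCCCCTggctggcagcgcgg

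Such a run was common to members that rose and members that fell. Of 68 members with a promoter entry, 53 (77.9%) had a run of at least 8 bases, against 3840 of 27305 genes (14.1%) in the whole promoter table. The run was present in 24 of 32 members that rose, 5 of 6 that fell and 24 of 30 that did not pass the test, and in 33 of 43 large-subunit and 20 of 25 small-subunit members. Among the paralogs 2 of 6 had it. The letters CTTTCC, which can lie inside such a run, were found within the printed window in 22 members (32.4%) and in 855 genes of the table (3.13%) on the coding strand. On either strand they were found in the same number, 22 members (32.4%), and in 1539 genes (5.64%). A match describes these letters only. Members without an entry included RPL3L, RPL5, RPL7, RPL8, RPL23, RPL30, RPL37, RPL39L, RPS2 and RPS20.

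On the deposited scale more ribosomal protein genes were higher than lower in the FABP4-binding cells, RPL26, RPL3 and RPS2 among them, and the few lower ones included RPS27, the most abundant of all. Once all libraries were given a common median, the order turned to 9 higher and 17 lower, as it turned for all genes (6.18% higher and 12.1% lower). Of 84 members tested with limma on log2(TPM + 1), 43 were higher and 7 lower in binding cells at a Benjamini-Hochberg adjusted p of 0.05, and 34 did not pass. Over all 15574 tested genes the shares were 19.6% higher and 7.12% lower. Among protein-coding genes at a mean of 100 TPM or more, the level at which most members lie, 29.7% were higher and 20.2% lower. The median log2 difference of the members was 0.46 (quartiles -0.03 and 0.69, lowest -0.86, highest 0.88), beside 0.36 over all tested genes. For 58 members every binding library exceeded every non-binding one, for 17 every binding library was lower, and for 9 the groups overlapped. Over all tested genes the groups were parted in these ways for 38.6% and 13.6%.

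How many members passed depended on single libraries, as it did for all genes. Without non-binding replicate 3 no member passed limma's adjusted threshold, with 50 at an unadjusted p under 0.05, and 0.372% of all genes were higher and 0.0385% lower. Without non-binding replicate 2 no member passed either, with 52 at an unadjusted p under 0.05, and 1.8% of all genes were higher and 0.514% lower. Without non-binding replicate 1 the counts were 18 higher and 2 lower, beside 9.16% and 3.28% of all genes, and without binding replicate 3 they were 29 and 3, beside 9.98% and 4.1%. Without binding replicate 1 they were 40 and 9, beside 12.7% and 5.7%. Without binding replicate 2 they were 29 and 6, beside 12.6% and 4.94%. The members' median log2 difference was 0.34 to 0.53 in these 6 fits. Without the filter on low values 14 members were higher and none lower (58 at an unadjusted p under 0.05), beside 5.12% and 1.86%, and without limma's intensity trend 16 were higher and 1 lower, beside 12.8% and 3.64%. All 43 higher members stayed positive and all 7 lower members stayed negative in each of the 6 fits that left out a library. The groups did not overlap for any of these members, so leaving out a library could not turn a sign.

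Both subunits had more genes higher than lower on the deposited scale, and the difference between them was not tested. Of 52 tested large-subunit genes 25 were higher, 4 lower and 23 not past the threshold, with a median log2 difference of 0.45. Of 32 small-subunit genes 18 were higher, 3 lower and 11 not past the threshold, with a median of 0.52. The higher large-subunit genes had log2 differences of 0.44 to 0.88 and the lower ones of -0.86 to -0.52. The higher small-subunit genes ranged from 0.41 to 0.82 and the lower ones from -0.74 to -0.43. Between the groups, libraries did not overlap for 45 large-subunit genes, 33 with binding above and 12 below, and for 30 small-subunit genes, 25 above and 5 below. Of all tested genes 19.6% were called higher and 7.12% lower, and the binding libraries lay above for 38.6% and below for 13.6%.

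**Figure D1:**
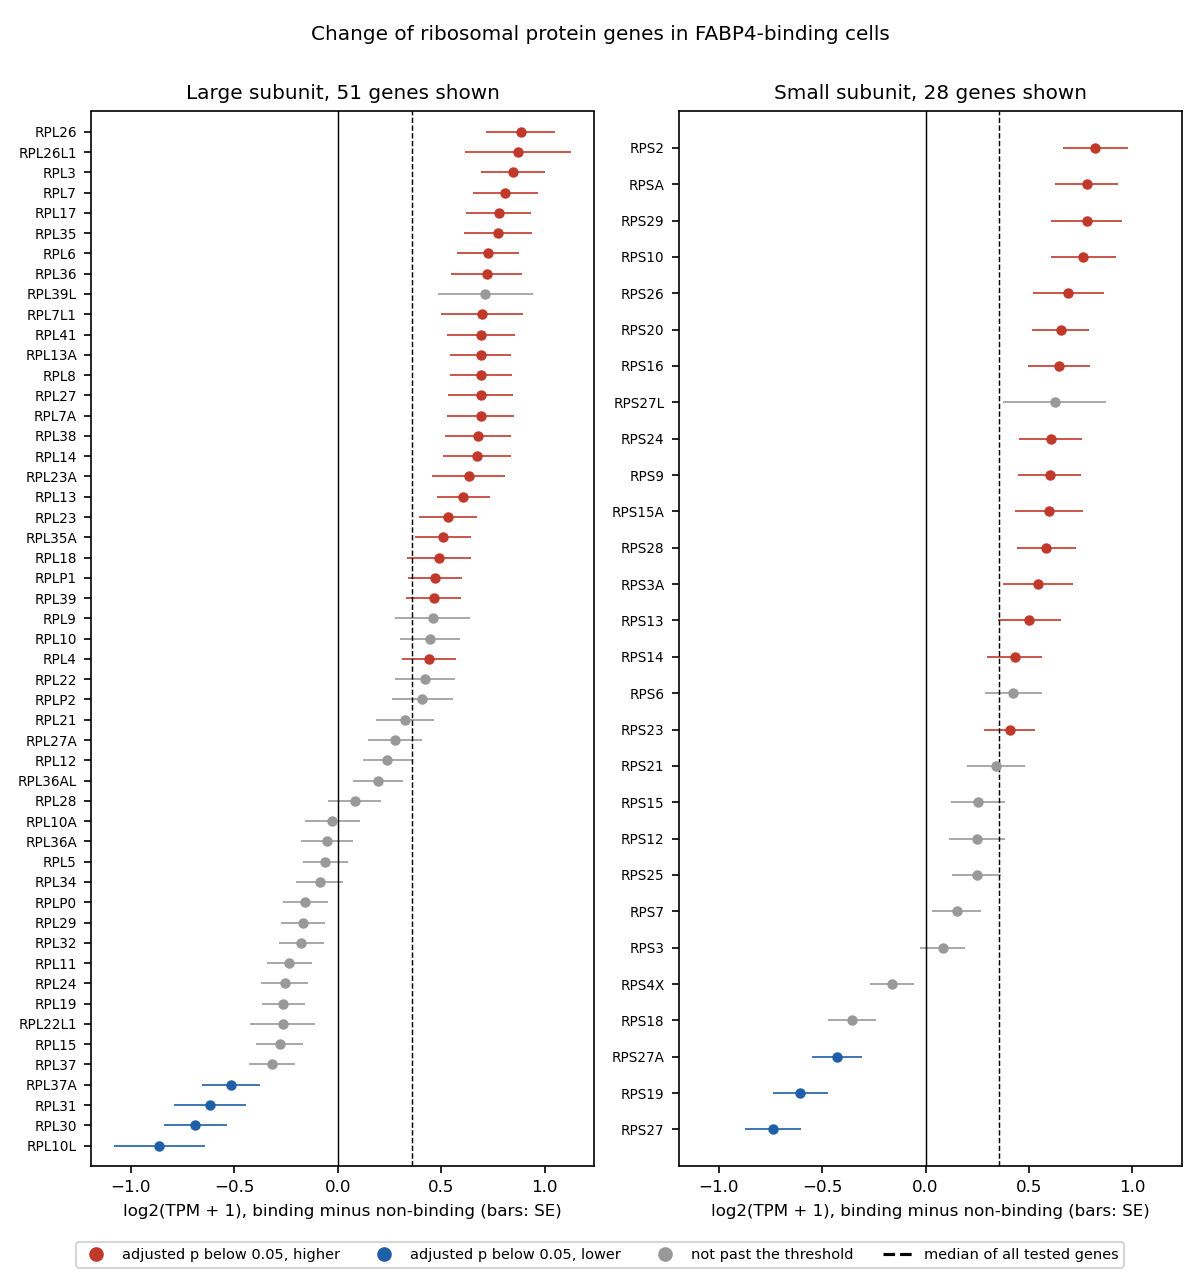
Log2(TPM + 1) difference, binding minus non-binding, for 79 of the 84 tested ribosomal protein genes, large subunit on the left and small subunit on the right (points: difference of the means of 3 libraries each; bars: limma's SE). Red points (39 genes) and blue points (7 genes) passed an adjusted p of 0.05, grey points (33 genes) did not, and the dashed line is the median of all tested genes, 0.36. After a shift to a common median 9 of the 84 were higher and 17 lower, beside 6.18% and 12.1% of all tested genes.

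RPL26, RPL3 and RPL8 were among the large-subunit genes that rose. RPL26 (ENSG00000161970, chr17:8377516-8383250, hg38), a protein beside the exit of the nascent chain, had 597.8, 438.4 and 413.2 TPM in the binding libraries and 285.1, 232.8 and 258.2 TPM in the non-binding libraries. Its lowest binding value lay above the highest non-binding value, and its log2 difference was the largest of the family, 0.88 (SE 0.17; limma, Benjamini-Hochberg adjusted p = 0.0159). RPL3 (chr22:39312882-39320389), which reaches into the peptidyl transferase centre, had 1854, 1359 and 1350 TPM in binding against 903.1, 780.7 and 825.4 TPM in non-binding libraries. All binding values exceeded all non-binding values, with a log2 difference of 0.85 (SE 0.15; limma, Benjamini-Hochberg adjusted p = 0.0153). RPL8 (chr8:144789765-144792587), another protein of that centre, averaged 3000.0 ± 545 TPM in binding against 1841 ± 117 TPM in non-binding libraries (mean ± SD, n = 3 per group), a log2 difference of 0.69.

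RPL7 (chr8:73290267-73295789) and RPL13A (chr19:49487554-49492308) also rose. RPL7 had 991.6, 776.7 and 752.2 TPM in binding against 534.4, 410.8 and 489.2 TPM in non-binding libraries, again without overlap, and a log2 difference of 0.81 (SE 0.16; limma, Benjamini-Hochberg adjusted p = 0.0167). RPL13A, which is also known for a role in silencing inflammatory messenger RNAs outside the ribosome, averaged 2893 ± 457 TPM in binding against 1782 ± 164 TPM in non-binding libraries (mean ± SD, n = 3 per group), a difference of 0.69. In RPL26, RPL3, RPL7, RPL8 and RPL13A the first binding library was the highest of all 6.

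The large-subunit genes that fell were RPL30, RPL31, RPL37A and the paralog RPL10L. RPL30 (chr8:98024851-98046469) had 1695, 2363 and 2260 TPM in binding against 3218, 3555 and 3320 TPM in non-binding libraries. Every binding value lay under every non-binding value, and the log2 difference was -0.69 (SE 0.15; limma, Benjamini-Hochberg adjusted p = 0.0215). RPL31 (chr2:101001715-101024032), which sits at the rim of the exit tunnel, had 1338, 2037 and 1885 TPM in binding against 2542, 2897 and 2509 TPM in non-binding libraries, a log2 difference of -0.62 (adjusted p = 0.0373). The groups were parted here too. RPL37A (chr2:216498189-216579180), a zinc-binding protein, averaged 1017 ± 144 and 1446 ± 96.0 TPM (mean ± SD, n = 3 per group), a difference of -0.52. Here and in the pairs of means that follow, the binding group comes first. In all 3 genes the first binding library was the lowest, the reverse of the genes that rose.

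RPL5 and RPL11 assemble with the 5S ribosomal RNA and, when unassembled, bind MDM2 and stabilise p53. Neither passed the test. RPL5 (chr1:92831983-92841924) had 2486, 2322 and 2330 TPM in binding against 2549, 2507 and 2389 TPM in non-binding libraries, so the groups overlapped (log2 difference -0.06, limma, Benjamini-Hochberg adjusted p = 0.682). RPL11 (chr1:23691742-23696835) averaged 1494 ± 54.5 and 1756 ± 49.7 TPM (mean ± SD, n = 3 per group), with all binding libraries under all non-binding ones and a log2 difference of -0.23 (adjusted p = 0.128). RPL19 (chr17:39200283-39204732), one of the 8 most abundant members, averaged 2137 ± 42.2 and 2563 ± 49.8 TPM (mean ± SD, n = 3 per group), a difference of -0.26 that did not pass (adjusted p = 0.094). RPL10A (chr6:35468408-35470785), the protein of the L1 stalk, was the large-subunit gene nearest to no difference, at -0.03 (SE 0.13), with overlapping groups.

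The acidic stalk, which recruits the GTPases of translation, is built from RPLP0 and pairs of RPLP1 and RPLP2, and its genes did not share a direction. RPLP0 (chr12:120196686-120201235) had 2738, 2785 and 2738 TPM in binding against 3055, 3235 and 2926 TPM in non-binding libraries. RPLP1 (chr15:69452784-69456194) had 861.5, 708.3 and 673.8 TPM in binding against 538.7, 517.3 and 553.5 TPM in non-binding libraries. RPLP2 (chr11:809647-812880) had 783.8, 591.5 and 573.1 TPM against 493.0, 460.6 and 499.9 TPM. The groups did not overlap for any of the 3 genes, with the binding libraries below for RPLP0 and above for RPLP1 and RPLP2. On the deposited scale only RPLP1 passed, at a log2 difference of 0.47 (SE 0.13, limma, Benjamini-Hochberg adjusted p = 0.0351), beside 0.41 for RPLP2 (adjusted p = 0.0688) and -0.16 for RPLP0 (adjusted p = 0.294). With a common median none of the 3 passed. RPLP1 was then at 0.15 (limma, Benjamini-Hochberg adjusted p = 0.35), RPLP2 at 0.09 (adjusted p = 0.611) and RPLP0 at -0.47 (adjusted p = 0.0619). With each gene's own pseudogenes added, RPLP0 passed as lower, at -0.78 (limma, Benjamini-Hochberg adjusted p = 0.0196), while RPLP1 stayed at 0.47 and RPLP2 at 0.40 (adjusted p = 0.0336 and 0.0696).

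In the small subunit the largest rises were those of RPS2 and RPSA. RPS2 (chr16:1962052-1964860), a protein of the messenger RNA entry site, had 3032, 2253 and 2169 TPM in binding against 1430, 1280 and 1466 TPM in non-binding libraries. The lowest binding value was above the highest non-binding value, with a log2 difference of 0.82 (SE 0.16; limma, Benjamini-Hochberg adjusted p = 0.016). RPSA (chr3:39406689-39412542), known also as the laminin receptor precursor of the cell surface, had 888.1, 664.6 and 668.1 TPM in binding against 463.7, 386.2 and 434.9 TPM in non-binding libraries. Its groups were parted as well, at a log2 difference of 0.78 (SE 0.15; limma, Benjamini-Hochberg adjusted p = 0.0169). RPS26 (chr12:56041351-56044697), which contacts the messenger RNA at the exit channel and is mutated in some cases of Diamond-Blackfan anaemia, averaged 292.6 ± 66.4 and 178.5 ± 14.2 TPM (mean ± SD, n = 3 per group), a difference of 0.69 that passed.

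RPS27 led the small-subunit genes that fell. RPS27 (ENSG00000177954, chr1:153990755-153992155), a zinc finger protein of the small subunit, had 3692, 4814 and 4497 TPM in binding against 7085, 7310 and 7173 TPM in non-binding libraries. It was the most abundant member in every library, its groups did not overlap, and its log2 difference was -0.74 (SE 0.14; limma, Benjamini-Hochberg adjusted p = 0.0155). RPS27 made up 4.13%, 6.03% and 5.86% of the members' summed TPM in binding and 9.22%, 9.57% and 9.41% in non-binding libraries.

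RPS19 and RPS27A fell with it. RPS19 (chr19:41859918-41872926), needed for maturation of the small subunit and the gene most often mutated in Diamond-Blackfan anaemia, had 1812, 2279 and 2227 TPM in binding against 3072, 3367 and 3133 TPM in non-binding libraries. All binding values were below, at a log2 difference of -0.61 (SE 0.13; limma, Benjamini-Hochberg adjusted p = 0.0208). RPS27A (chr2:55231903-55235853), made as a fusion with ubiquitin, averaged 1161 ± 107 and 1557 ± 78.3 TPM (mean ± SD, n = 3 per group), a difference of -0.43 (adjusted p = 0.0376). RPS18 (chr6:33272010-33276510), the second most abundant member, had 3104, 2956 and 2782 TPM against 3584, 3753 and 3968 TPM, with the binding libraries below and a difference of -0.35 that just missed the threshold (adjusted p = 0.0525).

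Other small-subunit proteins with known further roles did not pass. RPS6 (chr9:19375715-19380254), the classic substrate of S6 kinase, averaged 767.3 ± 102 and 569.5 ± 50.04 TPM (mean ± SD, n = 3 per group), a log2 difference of 0.43 (limma, Benjamini-Hochberg adjusted p = 0.0528). RPS3 (chr11:75399486-75422280), at the messenger RNA entry and with a reported part in DNA repair, differed by 0.08 (SE 0.11). The groups overlapped for RPS3 and not for RPS6.

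**Figure D2:**
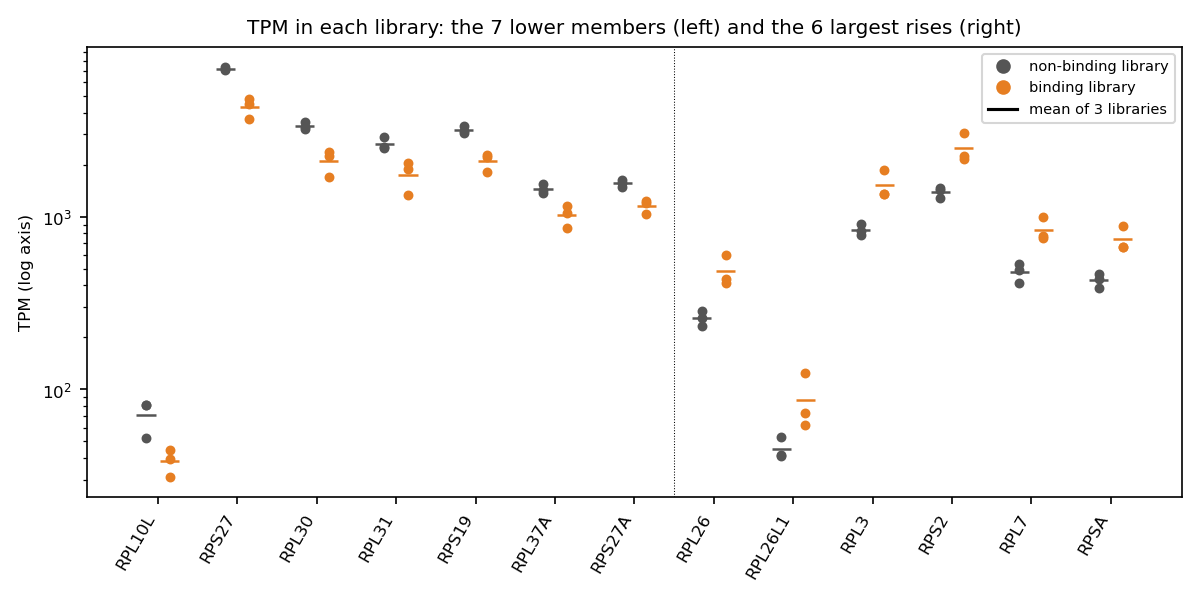
TPM in each of the 6 libraries, on a log axis, for the 7 members called lower (left of the dotted line) and the 6 largest rises (right), with grey points for non-binding libraries, orange points for binding libraries and a line at each mean. For each of the 13 genes all binding points lie on 1 side of all non-binding points, for example 3692 to 4814 against 7085 to 7310 TPM for RPS27.

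Of the paralogs, RPL26L1 and RPL7L1 rose and RPL10L fell. RPL26L1 (chr5:172958729-172969771) rose with RPL26: it had 125.3, 62.44 and 72.64 TPM in binding against 52.86, 41.57 and 40.95 TPM in non-binding libraries, a log2 difference of 0.87 (SE 0.26; limma, Benjamini-Hochberg adjusted p = 0.0411). RPL7L1 (chr6:42879618-42889925) rose with RPL7, from 60.4 ± 9.89 to 99.2 ± 23.0 TPM (mean ± SD, n = 3 per group), a difference of 0.70. RPL10L (chr14:46651010-46651821), a single-exon copy of the X-linked RPL10 known for its role in the male germ line, fell, while its parent did not pass.

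RPL10L had 31.17, 44.76 and 39.67 TPM in binding against 52.16, 80.88 and 81.54 TPM in non-binding libraries. The groups did not overlap, and its log2 difference of -0.86 was the lowest of the family (SE 0.22; limma, Benjamini-Hochberg adjusted p = 0.0286). RPL10 (chrX:154389955-154409168) averaged 573.3 ± 97.3 and 417.3 ± 27.5 TPM (mean ± SD, n = 3 per group), a difference of 0.45 that did not pass (adjusted p = 0.0535). Near-identical copies such as these can exchange reads in the counting, so the split of signal between RPL10L and RPL10, or between another paralog and its parent, is uncertain.

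The remaining paralogs did not pass. RPL22L1 (chr3:170864875-170870483) differed by -0.27 with overlapping groups, while RPL22 (chr1:6185020-6209389) differed by 0.42 with the binding libraries above and missed the threshold (limma, Benjamini-Hochberg adjusted p = 0.0611). RPL39L (chr3:187120948-187180908), best known from testis and tumours, differed by 0.71 (adjusted p = 0.0522), and RPL39 (chrX:119786504-119791643), which lines the exit tunnel, rose by 0.46 (adjusted p = 0.0374). RPL36AL (chr14:49618519-49620685) differed by 0.19 and RPL36A (chrX:101390824-101396154) by -0.05. RPL36AL, at 1201 TPM in binding against 1045 TPM in non-binding libraries, was the more abundant of this pair, beside 109.0 and 113.4 TPM for RPL36A. RPS27L (chr15:63125872-63158021), a known p53 target, had 13.32, 7.376 and 8.508 TPM in binding against 6.129, 4.923 and 6.384 TPM in non-binding libraries, a difference of 0.62 (adjusted p = 0.0911) where RPS27 fell. RPL3L (chr16:1943974-1957606), the muscle form of RPL3, was under 1 TPM in all libraries and was not tested: 0.540, 0.864 and 0.417 TPM in binding against 0.290, 0.313 and a listed 0 in non-binding libraries.

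Among ribosomal protein genes the most abundant had the lowest differences. Of the 24 members at 1000 TPM or more in the non-binding libraries, 4 were higher and 6 lower, with a median log2 difference of -0.16. Of the 33 members from 300 to 1000 TPM, 22 were higher and none lower, with a median of 0.50. Of the 27 under 300 TPM, 17 were higher and 1, RPL10L, lower, with a median of 0.60. Among other protein-coding genes at these 3 levels, taken after the members' values were seen, 22.1%, 12.5% and 23.5% were higher and 39.0%, 32.7% and 3.6% lower, with medians of -0.43, -0.30 and 0.44 over 77, 263 and 11626 genes. Across the 84 members the non-binding level and the log2 difference had a Spearman's rho of -0.44 and, with the level on a log2(TPM + 1) scale, a Pearson's r of -0.47. These describe genes that share 6 libraries, and the non-binding libraries enter both quantities.

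The 8 most abundant members of each library took 28.0%, 28.7% and 28.8% of the members' summed TPM in binding and 35.9%, 38.3% and 36.7% in non-binding libraries. The median member stood at 861.5, 655.8 and 640.7 TPM in binding against 531.1, 458.9 and 495.6 TPM in non-binding libraries. The middle of the family was thus higher in binding libraries and its top lower. Other properties went weakly with the difference: rho was 0.10 for the number of codons, 0.13 for exons, 0.08 for pseudogenes in the table and 0.12 for small nucleolar RNA (snoRNA) genes inside the gene. The 28 members that host a snoRNA gene had 16 higher, 1 lower and a median of 0.48, and the other 56 had 27 higher, 6 lower and a median of 0.44. Over all tested genes 19.6% were higher and 7.12% lower, with a median of 0.36. The difference between hosts and other members was not tested.

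**Figure D3:**
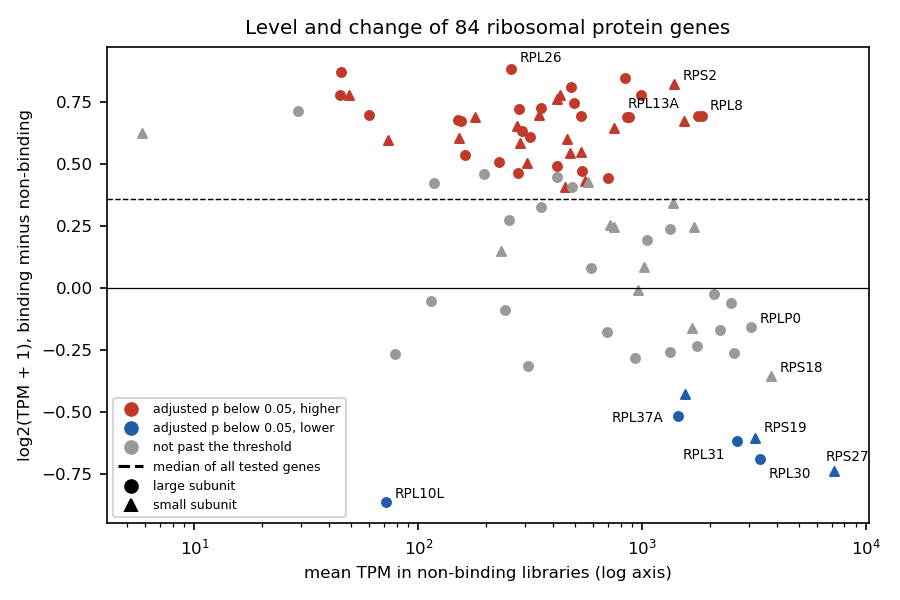
Mean TPM in the 3 non-binding libraries (log axis) against the log2(TPM + 1) difference, binding minus non-binding, for 84 ribosomal protein genes (circles: large subunit; triangles: small subunit; colours: limma calls at an adjusted p of 0.05). Of the 7 lower members, 6 lie at 1000 TPM or more and RPL10L lies far to the left of them.

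Summed over the family, the groups lay close together. The 85 members made up 8.94%, 7.98% and 7.68% of TPM in binding libraries and 7.69%, 7.64% and 7.63% in non-binding libraries, so the groups overlapped. The means differed by 0.549 percentage points, and by 0.177 without binding replicate 1. Large-subunit genes made up 5.21%, 4.62% and 4.46% against 4.35%, 4.32% and 4.28%, with the binding libraries above. Small-subunit genes made up 3.73%, 3.36% and 3.22% against 3.33%, 3.32% and 3.35%, with overlap.

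The ratio of summed large-subunit to summed small-subunit TPM does not depend on a library's scaling. It was 1.40, 1.38 and 1.39 in binding libraries and 1.31, 1.30 and 1.28 in non-binding libraries, without overlap. The ratio of the median gene of each subunit, 0.780, 0.818 and 0.837 against 0.860, 0.788 and 0.928, did overlap. The direction of the summed ratio rested on RPS27. Without RPS27, left out after its values had been seen, it was 1.55, 1.61 and 1.61 in binding and 1.66, 1.67 and 1.63 in non-binding libraries, so the binding libraries then lay below. With each gene's pseudogenes added to its subunit, the binding libraries also lay below, at 1.66, 1.80 and 1.80 against 1.96, 1.93 and 1.89.

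Pseudogenes named after the members were lower in the binding libraries on the deposited scale. The table held 1152 such pseudogenes, for 77 of the 85 members, and they made up 2.30%, 3.19% and 3.06% of TPM in binding and 4.59%, 5.18% and 4.65% in non-binding libraries, with the binding libraries below. Members and pseudogenes together made up 11.2%, 11.2% and 10.7% in binding and 12.3%, 12.8% and 12.3% in non-binding libraries, also below. RPLP0P6 alone took 1.16% ± 0.269 in binding and 2.13% ± 0.103 in non-binding libraries (mean ± SD, n = 3 per group).

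By parent gene, 63 members had pseudogenes that summed to at least 10 TPM. For 43 of them all binding libraries were below all non-binding ones and for 3 they were above, with a median log2 difference of -0.72. This held where the parent was higher (20 of 33 below, 3 above) and where it was lower (4 of 5 below). Among all 2211 tested pseudogenes of any gene, taken singly, limma called 2.35% higher and 24.6% lower. That measure differs from the overlap of summed values, and the overlap was not counted for other pseudogenes. Over all tested genes, taken singly, all binding libraries were below for 13.6% and above for 38.6%. The pseudogene sum exceeded the parent's own level in 21 of 77 members in non-binding and 14 of 77 in binding libraries. The pseudogenes of RPLP0 summed to 8556, 13600 and 12690 TPM in binding against 21770, 21930 and 20070 TPM in non-binding libraries, above RPLP0 itself in every library. How reads that match a member and its pseudogenes were assigned is not given in the sources used here.

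**Figure D4:**
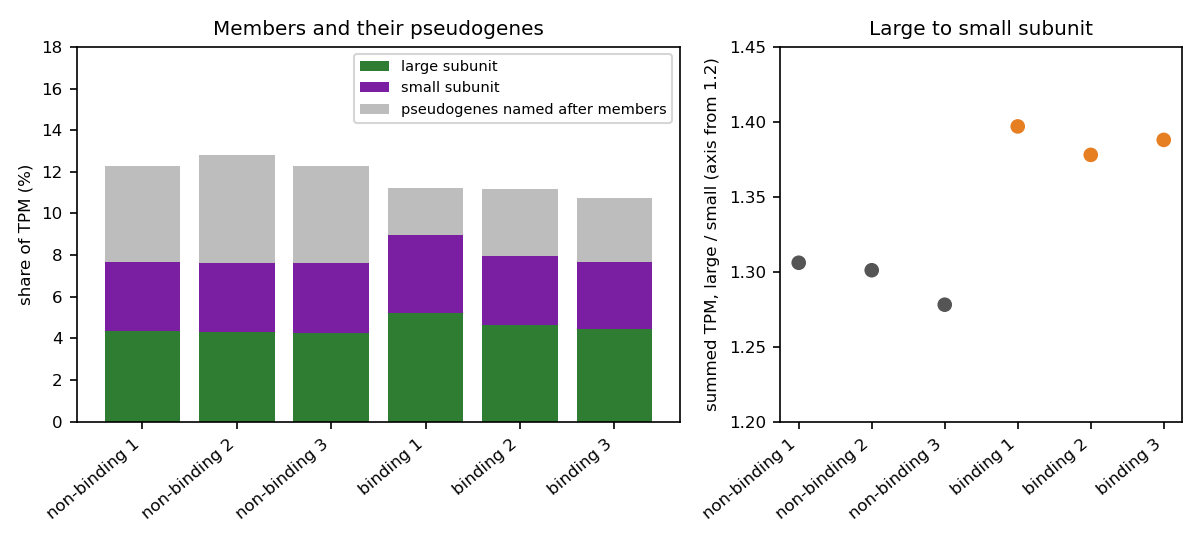
Left, share of each library's TPM in large-subunit genes, small-subunit genes and the pseudogenes named after them, stacked, for the 3 non-binding and 3 binding libraries; right, ratio of summed large-subunit to small-subunit TPM in the same libraries, on an axis that starts at 1.2. The pseudogene part is 2.30% to 3.19% in binding and 4.59% to 5.18% in non-binding libraries, and the ratio is 1.38 to 1.40 against 1.28 to 1.31.

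Which direction had more calls depended on the scaling. Once all libraries were given a common median, 9 members were higher and 17 lower (large subunit 5 and 12, small subunit 4 and 5), beside 6.18% and 12.1% of all genes, and the median difference was 0.14 with 0.04 over all genes. All 43 members called higher on the deposited scale stayed positive there, and none of them was called lower. With quantile normalization 46 were higher and 5 lower (26 and 3, 20 and 2), beside 7.69% and 8.0%, and the median was 0.57 with 0.11 over all genes. Without mitochondrial transcripts in the total, 53 were higher and 4 lower (32 and 2, 21 and 2), beside 28.4% and 5.16%, and the median was 0.57 with 0.45 over all genes.

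Among nuclear protein-coding genes alone, 47 members were higher and 9 lower (28 and 5, 19 and 4), beside 29.7% and 7.01%. The members' median difference was 0.40, with 0.38 over all of these genes. After the data had been seen, all pseudogenes were taken out of the total, and 25 members were higher and 16 lower (16 and 11, 9 and 5), beside 13.3% and 7.49%. The members' median was then 0.268, with 0.275 over all genes. Adding to each member the TPM of its own pseudogenes gave 25 higher and 17 lower (16 and 12, 9 and 5), beside 20.4% and 6.81%. The members' median difference was then 0.07, below the 0.37 over all genes.

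Some calls were made on each of 8 scales. On the deposited scale and under 7 rescalings, which count a total without the members and the members' own sum but not the adding of pseudogenes, 9 members were called higher each time, among them RPL3, RPL7, RPL17, RPL26, RPS2 and RPSA, and 4 lower each time, RPL10L, RPL30, RPS19 and RPS27, a grouping made after their values were seen. In all 8 scales 52 members had a positive and 17 a negative difference, and the sign of 15 varied, among them RPL5, RPL10A, RPL36A and RPS3. How many of all tested genes kept a call or a sign in all 8 scales was not counted. The common median alone already left 9 of the 43 higher calls, and a total without mitochondrial transcripts left 4 of the 7 lower calls. The 8 scales use the same libraries and are not separate checks. With a common median alone, 6.18% of all genes were higher and 12.1% lower. With a common median RPL26 stood at 0.57 (limma, Benjamini-Hochberg adjusted p = 0.0298) and RPS27 at -1.06 (adjusted p = 0.0195).

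Adding pseudogenes moved some of these genes and left others in place. With its own pseudogenes added, RPL26 stayed at 0.87 and RPS27 at -0.74. RPL3 moved from 0.85 to 0.11 (limma, Benjamini-Hochberg adjusted p = 0.509) and RPSA from 0.78 to -0.17 (adjusted p = 0.312). RPL17, 1 of the 9, turned to -0.87 (adjusted p = 0.0107): its own level was 78.2 TPM in binding against 44.8 TPM in non-binding libraries, and that of its pseudogenes 371.9 and 780.3 TPM. Of the 43 members called higher, 33 stayed positive and 25 stayed called higher with pseudogenes added, and all 7 lower members stayed called lower.

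**Figure D5:**
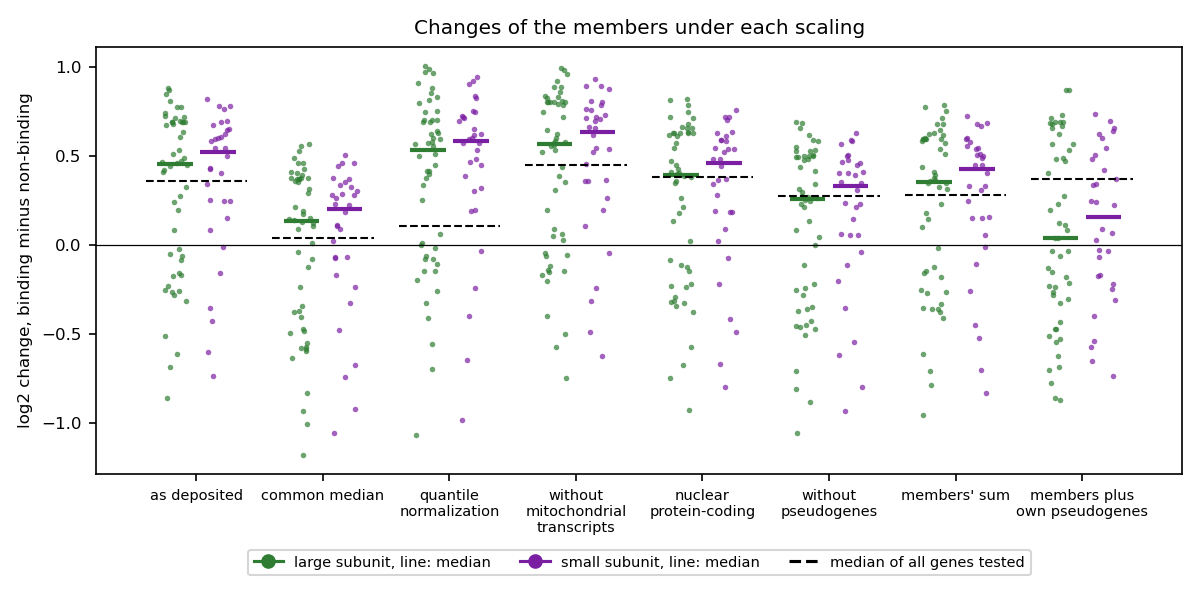
Log2 difference, binding minus non-binding, of each tested ribosomal protein gene (points) on the deposited scale and under 7 alternatives, with solid lines at the median of the large (green) and small (purple) subunit and a dashed line at the median of all genes tested. The members' median is 0.46 as deposited, 0.14 with a common median and 0.07 with their own pseudogenes added, beside 0.36, 0.04 and 0.37 over all genes. In every column single genes lie on both sides of 0.

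Other proteins of the ribosome have symbols that fall outside the rule, and the 2 described here did not pass. RACK1, the scaffold on the small subunit that also binds protein kinase C, averaged 948.4 ± 137 and 714.2 ± 8.47 TPM (mean ± SD, n = 3 per group), with the binding libraries above and a log2 difference of 0.40 (limma, Benjamini-Hochberg adjusted p = 0.0548). FAU, which carries a small-subunit protein, differed by 0.05 (adjusted p = 0.779), with overlapping groups.

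Assembly factors of both subunits were called higher more often than lower on the deposited scale, as protein-coding genes in general were. With a common median few passed in either direction. Of 31 tested factors of the large subunit 9 were higher and 2 lower (median log2 difference 0.58), and of 43 of the small subunit 13 were higher and 1 lower (median 0.58), beside 23.4% higher and 4.5% lower among all protein-coding genes tested. RSL1D1 (0.81), RSL24D1 (0.81) and PPAN (0.76) led the first list and NOC4L (0.92), TSR1 (0.91) and UTP3 (0.90) the second, while MRTO4 (-0.57), WDR12 (-0.44) and UTP4 (-0.45) fell. A common median gave 0 higher and 2 lower in the first list, and 1 higher and 2 lower in the second. At limma's unadjusted p under 0.05, 8 of 11 genes in the first list and 13 of 19 in the second were higher. Of all tested genes 6.18% were then called higher and 12.1% lower. Here and for the lists below, those shares include pseudogenes, and the shares of protein-coding genes alone were not counted with a common median.

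The machinery that makes and modifies ribosomal RNA had rises and falls, beside 23.4% higher and 4.5% lower among all protein-coding genes tested. Of 16 genes of RNA polymerase I and its factors 5 were higher and 2 lower, with the factors TAF1A (1.10) and RRN3 (0.80) and the subunit POLR1E (0.86) among the rises, and the subunit POLR1D (-0.61) and the factor UBTF (-0.60) as the falls. Of 13 snoRNP proteins 3 were higher and 1 lower: SHQ1 (0.79), SNU13 (0.70) and NHP2 (0.67) rose, and NOP58, a core protein of the box C/D particles, fell by 0.81, from 783.1 ± 43.1 to 447.6 ± 53.9 TPM (mean ± SD, n = 3 per group; limma, Benjamini-Hochberg adjusted p = 0.0131). With a common median these lists had 0 higher and 2 lower (3 higher at limma's unadjusted p under 0.05), and 0 higher and 3 lower (2 higher at an unadjusted p under 0.05). Of all tested genes 6.18% were then higher and 12.1% lower.

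Regulators of TOP messenger RNAs and mTORC1 gave 3 higher and 5 lower of 16, beside 23.4% and 4.5% of all protein-coding genes tested. RPTOR, the defining subunit of mTORC1, had 53.17, 38.14 and 44.35 TPM in binding against 22.21, 23.65 and 22.19 TPM in non-binding libraries and rose by 0.95 (limma, Benjamini-Hochberg adjusted p = 0.0139). The translation repressors EIF4EBP1 (0.81) and EIF4EBP2 (0.61) rose, and the S6 kinase RPS6KB1 (-0.79) and the RNA-binding proteins CNBP (-0.80) and TIAL1 (-0.72) fell. With a common median 1 was higher and 5 lower, beside 6.18% and 12.1% of all tested genes.

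Of 18 chaperones and importers of ribosomal proteins 4 were higher and 4 lower on the deposited scale, and 1 higher and 6 lower with a common median. For this list and the next, the deposited scale gave 23.4% higher and 4.5% lower among all protein-coding genes tested. A common median gave 6.18% and 12.1% of all tested genes. PDCD2, which escorts RPS2, rose by 0.90, from 11.3 ± 3.17 to 21.6 ± 4.44 TPM (mean ± SD, n = 3 per group; limma, Benjamini-Hochberg adjusted p = 0.0354), and C1QBP (0.88) and BCCIP (0.72) also rose. NAP1L1 (-0.56), the import receptor IPO7 (-0.47) and BTF3 (-0.43), part of the complex that binds nascent chains, fell. Of 14 genes of ribosome splitting, rescue and quality control 2 were higher, USP10 (0.77) and the rescue factor PELO (0.62), and 2 lower, the recycling ATPase ABCE1 (-0.55) and USP21 (-0.54). With a common median this list had 0 higher and 2 lower (2 higher at limma's unadjusted p under 0.05). Of the 154 tested genes in these 8 lists, none passed limma's adjusted threshold without non-binding replicate 3 (78 at an unadjusted p under 0.05), and 1 passed without non-binding replicate 2 (68 at an unadjusted p under 0.05). In these fits 0.372% and 1.8% of all genes were higher, and 0.0385% and 0.514% lower.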

How the data were processed

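The values are TPM as deposited by the authors, each library summing to 1000000 over 58051 genes. Per the submitters' processing notes the build was hg38. The aligner, quantifier and annotation are not given in the sources used. Because TPM hold no read depth, neither a count model nor an interval for counting error was possible. Genes at 1 TPM or more in at least 3 libraries (15574) were tested on log2(TPM + 1) by limma (3.58.1, under R 4.3.3) using its intensity trend and no covariates, and p-values were adjusted by Benjamini-Hochberg over all of them, with a threshold of 0.05. Fold changes on this scale understate those of low genes. Gene types, the class of all pseudogenes among them, coordinates and snoRNA hosts came from GENCODE 29 (99.0% of identifiers matched). The pseudogenes of a member were taken by symbol, as the member's symbol followed by P and any digits, without a check of their type. Promoters came from RefSeq.

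The members and gene lists were chosen with earlier results of these data known, so no p-value is given for a list. By rule, members named with values were the 8 most abundant, the 6 largest rises and falls past the threshold, the 4 nearest to 0, paralogs with their parents, 12 with known further roles and any listed at 0, which gave 37 genes. Some genes are not reported here. Other lists named up to 3 rises and 3 falls. Alternatives changed the pseudocount (0.1), the filter, the scaling, the trend, the replicate block and the libraries included. Taking pseudogenes out of the total, adding them to their parents, dividing by the members' sum and leaving out RPS27 were chosen after seeing the data.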

Additional observations from a re-analysis of the deposited data

How the results depend on the processing

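TPM hold no depth, so precision at low levels is unknown. With 1 library left out, 0 to 40 members were higher and 0 to 9 lower by limma (large subunit 0 to 24 and 0 to 5, small subunit 0 to 16 and 0 to 4). Of all tested genes 0.372% to 12.7% were higher and 0.0385% to 5.7% lower in these fits. In the fits without a call, 50 and 52 members had a limma unadjusted p under 0.05. Without a filter 14 were higher and 0 lower (8 and 0, 6 and 0; 58 at an unadjusted p under 0.05), and without the trend 16 and 1 (10 and 0, 6 and 1). A common median gave 9 and 17 (5 and 12, 4 and 5), beside 6.18% and 12.1% of all genes, and a median difference of 0.14. Without mitochondrial transcripts 4 were lower, 2 of them large-subunit genes. Without pseudogenes the counts were 25 and 16 (16 and 11, 9 and 5). With own pseudogenes added they were 25 and 17 (16 and 12, 9 and 5), with a median of 0.0748 beside 0.37 over all genes. The cause was not tested.

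The members' share of TPM, 0.549 percentage points higher in binding libraries, was 0.177 (without binding replicate 1) to 0.809 (without binding replicate 3) with 1 library left out, and became 1.26 without mitochondrial transcripts, -0.676 without pseudogenes and -1.41 with own pseudogenes added. The large-to-small ratio, 0.0928 higher, became -0.174 with own pseudogenes added and -0.0598 without RPS27. Signs turned for members near 0: RPL10A to 0.0633 (quantile), 0.088 (without mitochondrial transcripts) and, with 1 library left out, -0.128 to 0.0409; RPL36A to 0.0599 and RPL5 to 0.0525 without mitochondrial transcripts; RPL36AL to -0.12 and RPS3 to -0.24 with a common median; RPS3 to -0.11 without pseudogenes and -0.0137 over the members' sum. With own pseudogenes added, RPL10 was at -0.0326, RPL22 at -0.48, RPL39 at -0.0626 and RPSA at -0.17. The other pseudocount, the stricter filter and a total without the members kept each count of calls within 1.5 times.

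The replicate numbers were not shown to pair the libraries: same-numbered libraries had correlations of 0.0349, -0.0167 and 0.0284. With the replicate block 44 members were higher and 7 lower (27 and 4, 17 and 3; 20.4% and 7.27% of all genes), and the median stayed 0.46.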
